A study of Homo sapiens with 4 samples.

Results

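MT-CO3 is the mitochondrial gene of subunit III of cytochrome c oxidase, and its mRNA was described here base by base from dimethyl sulfate (DMS) probing. Its positions were taken from the heavy-strand files as positions 9206 to 9989 of chromosome MT in the files' own numbering, which is 9207 to 9990 in the gene table of the assembly GRCh38.p14 (gene ID 4514). This stretch holds 784 nt of the 16500 positions in that file, and 459 of them are A or C, the bases at which DMS gives a signal. All 459 lay within the limits set on the mean fraction, out of 9910 A and C positions tested in the file. The bases of the file start with ATG, read through 261 whole codons with 0 stop codons in frame, and leave 1 base over at the end. In human mitochondria such an unfinished codon becomes a stop codon when the mRNA is polyadenylated.

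The study treated mitochondria of HEK-293T, an established line of human embryonic kidney origin, with 1% DMS for 5 min at 37 °C. Wild-type mitochondria gave 2 libraries, and mitochondria lacking LRPPRC gave the other 2, each described as a biological replicate. How the knockout line was made and whether it is 1 clone are not given in the sources used here. LRPPRC is a nuclear gene, its own RNA was not analysed here, and the knockout was taken from the labels. All 4 libraries were treated with DMS, and an untreated library was not analysed here.

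DMS adds a methyl group to A and C bases that are not held in a base pair, and the TGIRT-III enzyme copies such a base with an error. A high mismatch fraction at A or C is therefore usually read as an accessible base, and a low one as a paired or otherwise shielded base. G and T give no such signal and serve as background. Cytochrome c oxidase, complex IV of the respiratory chain, takes 3 subunits from the mitochondrial genome, encoded by COX1, COX2 and MT-CO3. MT-CO3 is cut from a long heavy-strand transcript, where it follows MT-ATP6, a subunit of the ATP synthase, and precedes MT-TG, the tRNA for glycine. LRPPRC binds mitochondrial mRNAs together with SLIRP and is known for keeping them stable and polyadenylated.

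The stretches that carry the results below are given 5′ to 3′ as the files' base column has them. The first is the junction, positions 9176 to 9235, shown because the last base of MT-ATP6 is also the first base of MT-CO3. Its capitals mark the MT-CO3 start codon.
MT-ATP6/MT-CO3 junction: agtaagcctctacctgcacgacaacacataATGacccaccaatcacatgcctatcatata
A predicted hairpin, positions 9293 to 9344, holds 8 of the 12 MT-CO3 positions that were called higher in the knockout without any scaling. Its capitals mark the bases paired in the predicted fold.
local stem-loop: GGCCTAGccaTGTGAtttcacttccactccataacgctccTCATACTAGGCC
The stretch with the largest rise, positions 9417 to 9455, has capitals at 9432 and 9440. Both rose from values under the G and T background of the 50 nt around them.
around the largest rise: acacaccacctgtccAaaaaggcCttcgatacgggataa
The stretch with the largest fall, positions 9853 to 9897, has capitals at 9868 and 9882, which both fell.
around the largest fall: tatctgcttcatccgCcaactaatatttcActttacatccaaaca

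The reactivity of MT-CO3 was lower in the knockout at A and at C, while its background at G and T was higher. The mean mismatch fraction over the 459 A and C was 3.43% and 3.40% in the wild-type libraries and 2.11% and 2.08% in the knockout libraries. Both knockout libraries lay well below both wild-type libraries. The difference was -1.32 percentage points (3.42% ± 0.0196 against 2.09% ± 0.0217, SD, n = 2 each), or -38.7% of the wild-type level. A two-sided exact permutation test gave p = 0.333, the smallest value that 2 libraries against 2 can give.

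Cytosines changed more than adenines. The 249 C went from 3.84% and 3.79% to 2.20% and 2.17%, a change of -0.72 on the log2 scale. The 210 A went from 2.94% and 2.94% to 2.00% and 1.97%, a log2 change of -0.52. In wild type C was more reactive than A, and in the knockout that gap was narrow. The 116 G went the other way, from 0.414% and 0.392% to 0.571% and 0.628%. T rose from 0.90% and 0.872% to 1.04% and 1.08%. The ratio of the A and C mean to the G and T mean was 4.72 and 4.85 in wild type, against 2.41 and 2.26 in the knockout, with no overlap (exact permutation p = 0.333).

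The light-strand files, which number the opposite strand, gave a further measure that moved with these levels. Over the same stretch, the light-strand A and C mean went from 1.30% ± 0.00623 in wild type to 2.08% ± 0.00429 in the knockout (SD, n = 2 each). The light-strand G and T mean fell from 2.60% ± 0.0496 to 0.525% ± 0.00173. Thus in wild type the light-strand file had the higher values at G and T, the bases that pair with heavy-strand C and A. Across 115 G positions of MT-CO3, the heavy-strand G fraction correlated with that of the paired light-strand C with Pearson's r of 0.27 and 0.22 in wild type, against 0.88 and 0.87 in the knockout. These positions share their library and reads, and the values are a description. The least-squares slope of heavy-strand G on the paired light-strand C, in percent, was 5.24 in wild type, against 27.7 in the knockout, and over G and T in 1 regression it was 19.1 and 28.8. Leaving out the highest 5% of positions turned the order of the pooled slope (33.8 and 30.4). When each A and C fraction was corrected with the slope at G, the MT-CO3 mean went from 3.47% ± 0.0329 to 2.70% ± 0.0149, a smaller fall than in the uncorrected values. The part of light-strand reads in the changes below was otherwise not tested.

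The median of the tested A and C of the heavy-strand file differed by -0.63 between the groups on the log2 scale. Changes were therefore computed as log2(fraction + 0.001) and set relative to the median of each library, which is called centred below. After centring, the median change over all tested positions was 0.13, so a gene with no centred change still fell more than the median position. Values without centring are given where the direction depends on it. At the level of the whole mRNA, the centred change of MT-CO3 was 0.002 (SE 0.00990, limma adjusted p = 0.838). Other settings gave small called changes of either sign: -0.04 with quantile normalization (limma adjusted p = 0.0168), -0.06 with a lower limit of 0.01 on the mean fraction (0.00325), 0.08 at C alone (0.00159), and 0.21 and 0.23 with the corrections for the opposite strand (0.00196 and 0.0010). Without centring the change was -0.63 (limma adjusted p = 2.8e-07). Of the 28 heavy-strand genes tested, 78.6% were called higher and 3.57% lower after centring, and 71.4% were called lower without it.

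**Figure D1:**
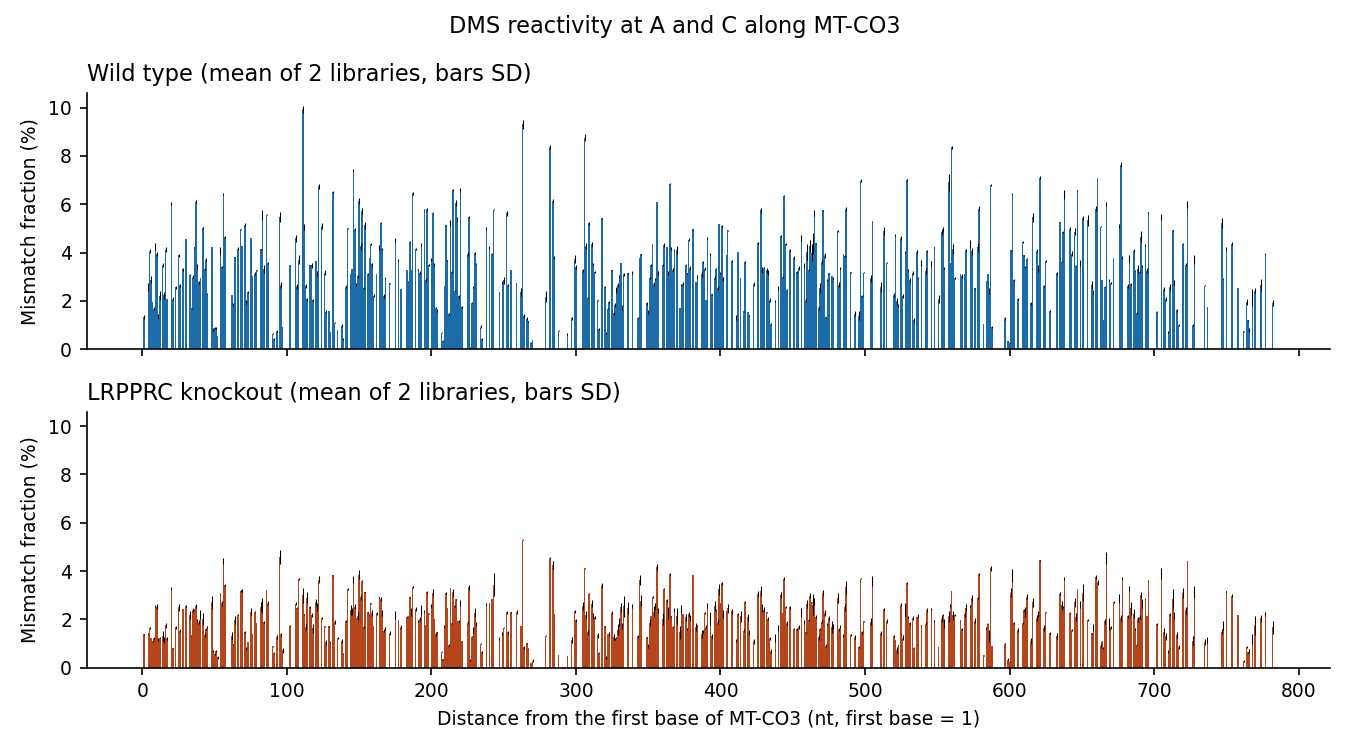
Mismatch fraction in percent at each of the 459 A and C positions of MT-CO3, against the distance from its first base in nt, for wild type (upper) and LRPPRC knockout (lower). Coloured bars are means of 2 libraries and black bars are SD. The wild-type means reach 9.93% and the knockout means 5.30%.

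Along the mRNA, wild-type position means ran from 0.0955% to 9.93% with a median of 3.29%, and knockout means from 0.204% to 5.30% with a median of 2.08%. The profile was repeatable: over the 459 positions, log2 values correlated with r = 0.998 between the wild-type replicates, 0.985 between the knockout replicates and 0.877 to 0.879 between groups. The median absolute difference between replicates was 0.03 on the log2 scale in wild type, against 0.07 in the knockout. Reactivity was also more even in the knockout. The Gini index, which is 0 where all positions are equal, fell from 0.260 ± 0.00133 to 0.234 ± 6.53e-05 (SD, n = 2 each), a change of -0.0267 (SE 0.00183, limma adjusted p = 0.0035). It was called lower in 42.9% of the 28 genes, and these were the 12 protein-coding ones. Their changes ran from -0.0129 in COX2 to -0.0573 in ND4L, so the fall was not particular to MT-CO3. Without knockout replicate 1 the Gini change of MT-CO3 was -0.0263 with an adjusted p of 0.0519, which is no longer called. At A alone the change was -0.0100 (limma adjusted p = 0.0802, not called) and at C alone -0.0125. With the pooled correction for the opposite strand it was -0.0133, and with the slope at G -0.0114.

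In windows of 50 nt tiled from the first base, the most reactive part of MT-CO3 was near its 3′ end and the least reactive was the end itself. Nucleotides 601 to 650 had 4.12% ± 0.0342 in wild type, against 2.43% ± 0.0309 in the knockout, and nucleotides 651 to 700 had 3.94% ± 0.0390 and 2.36% ± 0.0325 (SD, n = 2 each). The last window, nucleotides 751 to 784, had 2.25% ± 0.0566 and 1.5% ± 0.0451. The next lowest in wild type was the window from 301 to 350, with 2.96% ± 0.0318 and 1.99% ± 0.0471. Both groups thus had their highest windows in the same place, and both were lower in the last 2 windows than in the pair before them.

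Without centring, all 16 windows of MT-CO3 were lower in the knockout by limma, against 90.9% of the 330 windows tested in the file. After centring, 7 were called higher, against 62.1% in the file, and 7 lower, against 26.1%. The count of higher windows was 4 with quantile normalization and 4 without knockout replicate 1. With the corrections for the opposite strand, 13 (pooled slope) or 16 (slope at G) were higher and 0 lower. Nucleotides 101 to 150 rose most relative to the file, by 0.21 (SE 0.01, limma adjusted p = 3.4e-05), with an uncentred change of -0.42. The window from 701 to 750 followed with 0.15 (SE 0.02, limma adjusted p = 0.000256; -0.48 uncentred), but its A positions alone gave -0.23. The largest falls were in the windows from 501 to 550 (-0.19, SE 0.02, limma adjusted p = 7.6e-05) and from 451 to 500 (-0.13, SE 0.01, limma adjusted p = 7.0e-05). Both falls turned to rises when fractions were corrected for the opposite strand (0.04 and 0.06 with the pooled slope, 0.05 and 0.08 with the slope at G).

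**Figure D2:**
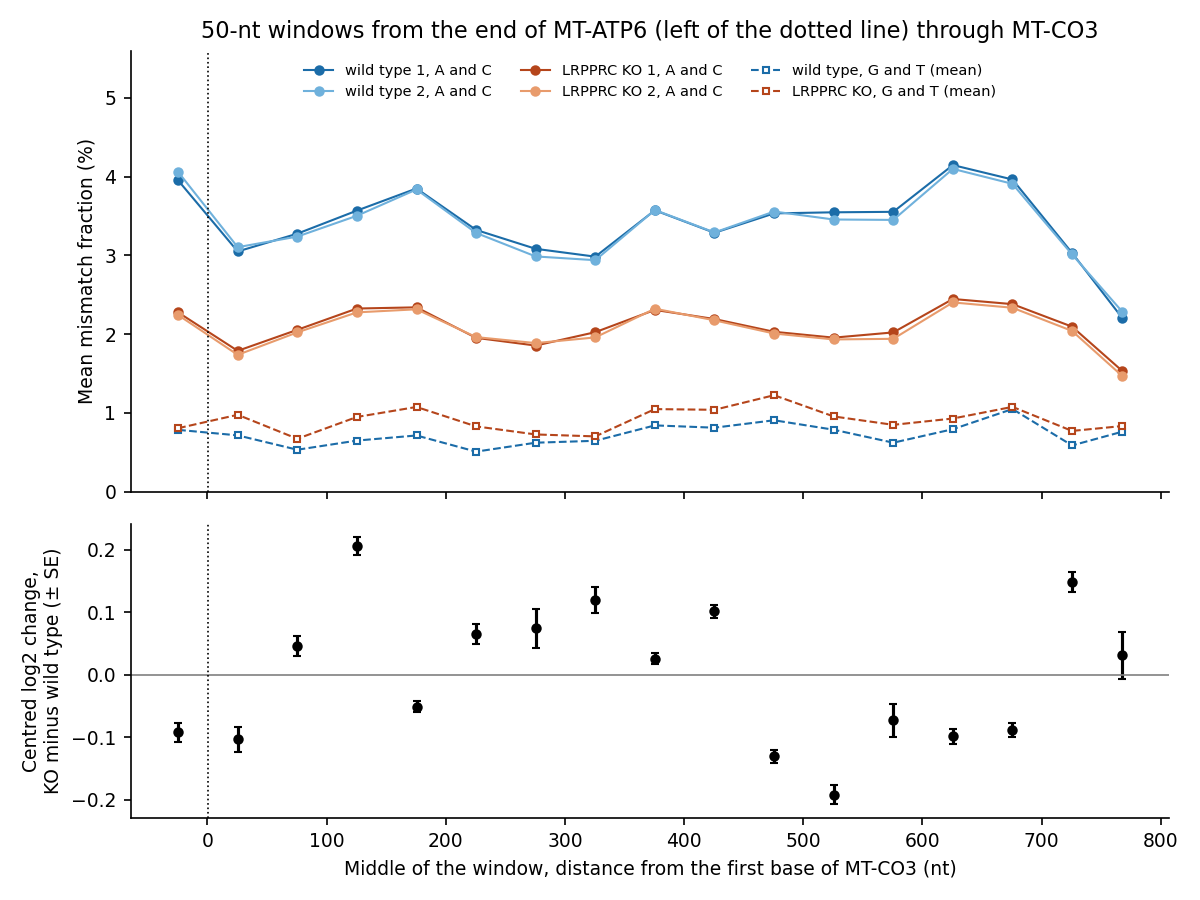
Upper panel, mean mismatch fraction in percent in 50-nt windows, per library for A and C and as group means for G and T, against distance from the first base of MT-CO3; the leftmost window is the end of MT-ATP6. Lower panel, centred log2 change with its SE. Wild-type and knockout libraries do not overlap in any window, and the window at nucleotides 101 to 150 has the highest change (0.21).

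At single positions, limma called 407 of the 459 A and C lower without centring (88.7%, against 78.3% of the positions tested in the file) and 12 higher (2.61%, against 4.73%). After centring, 144 were higher (31.4%, against 44.9%) and 150 lower (32.7%, against 26.6%). The median centred change was -0.00 in MT-CO3 and 0.13 over all tested positions. The bases split: 91 A were called higher and 34 lower, while 53 C were higher and 116 lower. The median centred change was 0.12 at A and -0.12 at C. This split depends on centring both bases on 1 median: with each base centred alone, 46 A were higher and 62 lower, and 99 C higher and 66 lower. Without wild-type replicate 2, the count of higher positions was 92. An absolute centred change of at least 1 was reached by 18 called positions, 11 higher and 7 lower.

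**Figure D3:**
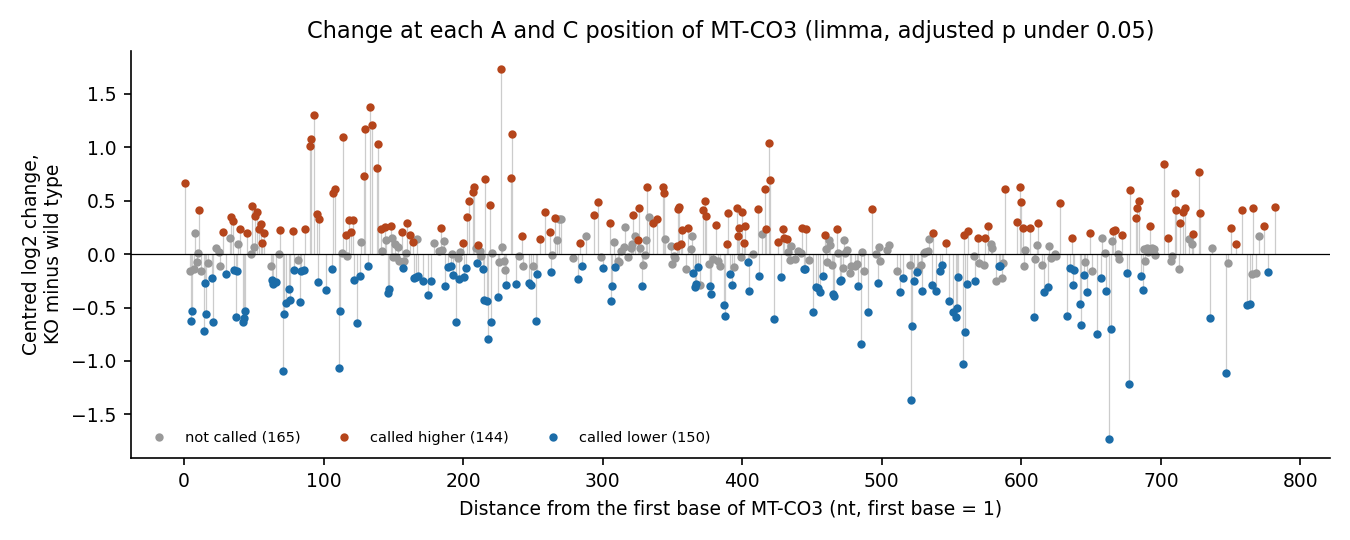
Centred log2 change, knockout minus wild type, at each of the 459 A and C positions against distance from the first base of MT-CO3 in nt. Red points were called higher (144), blue lower (150) and grey neither (165). The red points above 1 gather between nucleotides 90 and 139.

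The 6 positions that rose most after centring were also higher without it, and 4 of the 6 lie in 1 predicted hairpin. The largest rise with the pseudocount of 0.001 was at the A at 9432, which read 0.096% and 0.095% in wild type, against 0.296% and 0.344% in the knockout (1.73, SE 0.13, limma adjusted p = 0.000546). It was the least reactive A or C of MT-CO3 in wild type, and the knockout value was still far below the median of the mRNA. Its wild-type mean of 0.0955% lay under the lower limit of 0.002 on the mean fraction. It thus entered the test only through its knockout values. At so low a level the change depends on the pseudocount: it was 2.30 with 0.0001 and 0.73 with 0.01, where 9338 (0.93), 9298 (0.83), 9319 (0.81), 9340 (0.78) and 9335 (0.74) were higher. The C at 9440, on the same printed stretch, went from 0.456% and 0.410% to 0.676% and 0.628% (1.13, SE 0.11, limma adjusted p = 0.00106). Around both, in nucleotides 201 to 250, background at G and T averaged 0.508% in wild type and 0.829% in the knockout. Both positions lay under this background in each group, and its part in their rise was not tested.

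The other 4 lie in the hairpin printed above as the local stem-loop, nucleotides 88 to 139 of the mRNA, in codons 30 to 47. This hairpin was singled out after its values were seen. In a fold predicted from sequence alone with RNAfold, limited to pairs at most 160 nt apart, it has 12 base pairs, 6 G-C, 5 A-T and 1 G-T, around a loop of 25 nt. With no limit on the span, 0 of these 12 pairs were in the predicted fold. RNAplfold gave its 11 paired A and C unpaired probabilities between 5.13% and 71.5%, so the prediction is not firm for all of them.

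Positions in both arms of the hairpin were called higher. Of its 11 paired A and C, 9 were called higher and 2 lower after centring, and 7 higher and 2 lower (at 9307 and 9337) without it. Over the whole file, 44.9% of positions were called higher and 26.6% lower after centring, and 4.73% and 78.3% without it. The mean of the 11 went from 1.58% ± 0.0152 to 1.45% ± 0.00386 (SD, n = 2 each), and the 2 called lower were the most reactive of them. In the 5′ arm the A at 9298 went from 0.795% and 0.724% to 1.33% and 1.20% (1.30, SE 0.09, limma adjusted p = 0.000531). The C at 9295 went from 0.659% and 0.646% to 0.901% and 0.866% (1.02). The C at 9296 went from 0.463% and 0.399% to 0.606% and 0.637% (1.07). In the 3′ arm the C at 9338 went from 1.11% and 1.08% to 1.95% and 1.84% (1.38, SE 0.06, limma adjusted p = 0.000225). The A at 9340 went from 0.799% and 0.788% to 1.20% and 1.28% (1.21), and the A at 9335 from 0.706% and 0.723% to 1.07% and 1.09% (1.17). The C at 9344, the last base of the hairpin, went from 0.442% and 0.383% to 0.588% and 0.563% (1.03). Each of these 7 positions had both knockout libraries above both wild-type libraries, 3 in the 5′ arm and 4 in the 3′ arm, and each was also called higher without centring.

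In the loop of the hairpin, limma called 7 of the 16 A and C higher and 6 lower after centring (file: 44.9% and 26.6%). Without centring it called 1 higher and 13 lower, beside 88.7% of all MT-CO3 positions lower. The 16 A and C averaged 4.00% and 3.87% in wild type, against 2.45% and 2.37% in the knockout, while the 11 paired A and C averaged 1.59% and 1.57% against 1.45% and 1.45%. The loop base that was higher without centring, the C at 9319, went from 2.12% and 2.02% to 3.06% and 2.75% (1.09 centred, SE 0.06, limma adjusted p = 0.000323). The C at 9316, in the same loop, was the most reactive base of MT-CO3 in wild type, with 10.0% and 9.83%, and fell to 3.23% and 2.77% (-1.07, SE 0.07, limma adjusted p = 0.000492).

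Of the 12 positions of MT-CO3 that were higher without centring, 8 lie in this hairpin. The other 4 are 9432 and 9440, described above, the C at 9624 (1.55% and 1.55% in wild type, knockout libraries 2.19% and 1.99%) and the C at 9907 (1.57% and 1.55% against 1.86% and 1.79%). The light-strand file opposite the 7 rising arm positions read 0.601% ± 0.0176 in wild type, against 0.318% ± 0.00172 in the knockout (SD, n = 2 each). Opposite the other 452 A and C of MT-CO3 it went from 2.63% ± 0.0507 to 0.528% ± 0.00173. The 13 G and T paired in the hairpin read 0.277% and 0.258% in wild type, against 0.492% and 0.547% in the knockout, so background rose beside the arms, by 0.252 percentage points. Of the 7 arm positions, 9295, 9296 and 9344 rose by less than this and the others by more. The part of background in the rise of the arms was not tested.

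**Figure D4:**
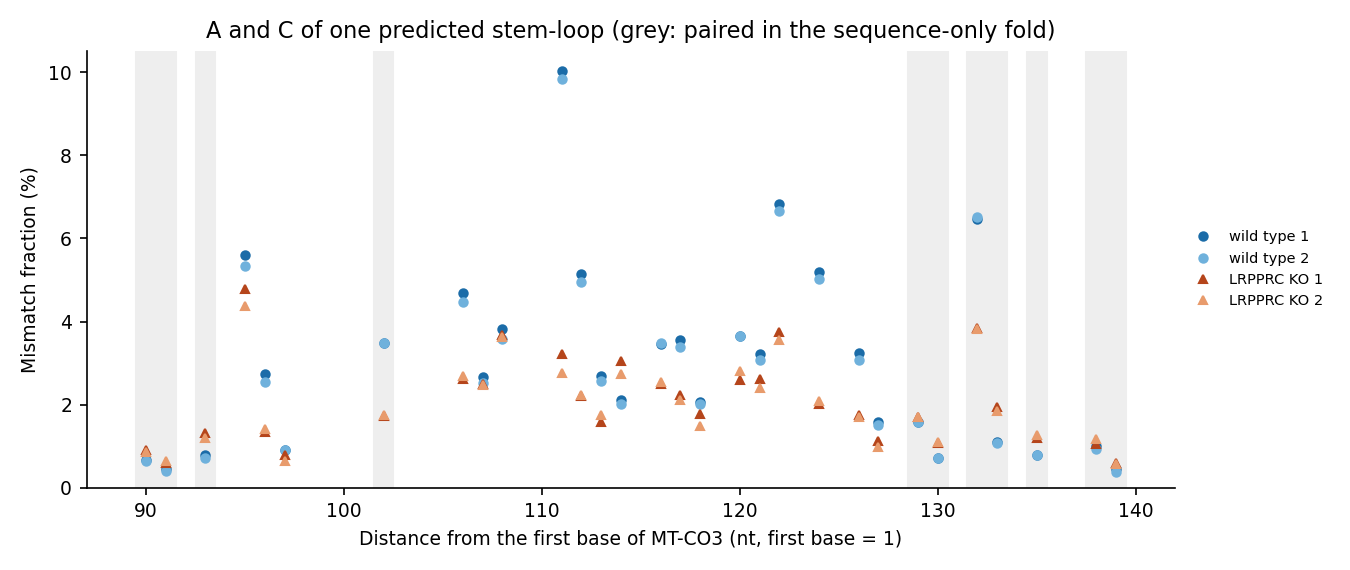
Mismatch fraction in percent at the A and C of the predicted hairpin, nucleotides 88 to 139 of MT-CO3, for each of the 4 libraries; grey bands mark the 11 positions paired in the sequence-only fold. In the bands 9 positions have both knockout libraries above both wild-type libraries, and 7 of these were called higher without centring. In the loop the position at nucleotide 111 falls from near 10.0% to near 3.00%.

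The positions that fell most were spread over the mRNA and had been well above its median in wild type. Level and centred change went together over the mRNA as a whole. Its lowest 115 positions by mean level had a median centred change of 0.20, and its highest 115 had -0.11. The C at 9868 went from 5.07% and 5.08% to 0.967% and 0.848%, a centred change of -1.73 (SE 0.07, limma adjusted p = 0.000175). The C at 9726 went from 4.76% and 4.70% to 1.10% and 1.13% (-1.37, SE 0.03, limma adjusted p = 0.000117). The A at 9882, on the same printed stretch, went from 7.72% and 7.56% to 1.97% and 2.15% (-1.21, SE 0.05, limma adjusted p = 0.000171). The groups were far apart at each, and the knockout values had come down to or below the knockout median. The A at 9952 (5.09% and 5.39% against 1.57% and 1.42%) and the C at 9276 (5.19% and 5.07% against 1.45% and 1.52%) changed by -1.12 and -1.09. In the predicted fold, 9868, 9726 and 9952 are paired and 9882, 9276 and 9316 are not, so the falls took in both states.

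The most reactive bases of wild type did not all fall alike. After 9316, the highest were the C at 9468 (9.44% and 9.16% in wild type, knockout libraries 5.29% and 5.32%) and the C at 9511 (8.84% and 8.65% against 4.10% and 4.13%). The C at 9487 read 8.44% and 8.31% against 4.53% and 4.57%, and the C at 9765 read 8.39% and 8.31% against 3.19% and 3.18%. Relative to the file, 9468 changed by -0.17 and 9765 by -0.73. Position 9468 thus kept the highest knockout value of the mRNA, and its direction turned with the C positions alone (0.01) and with the correction for the opposite strand (0.21, or 0.17 with the slope at G). The sixth highest was 9882.

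Neighbouring bases went with the level of C. The 67 C that follow an A averaged 5.28% in wild type, against 3.12% in the knockout, and the 84 C that follow another C averaged 2.87% and 1.62%. After T the 60 C averaged 3.98% and 2.22%, and after G the 38 C averaged 3.08% and 1.74%. At A the base before made less difference, from 2.77% after C to 3.16% after T in wild type. Of the 5 C among the 6 most reactive positions, 3 follow A and 2 follow T. Codon position made little difference at A (2.92%, 2.89% and 2.99% in wild type at the codon's bases 1, 2 and 3), and C at base 2 was somewhat higher (4.19%, against 3.65% and 3.69%). These are means over positions and carry no test.

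Setting the reactivity against the predicted structure, paired bases were less reactive than unpaired ones in both groups, mainly at C. The fold paired 364 of the 784 nt. In wild type the 172 paired A and C averaged 3.02% and 3.01% and the 287 unpaired ones 3.68% and 3.64%. In the knockout these means were 1.85% and 1.82% against 2.27% and 2.23%. At C the wild-type means were 3.12% paired and 4.21% unpaired, and at A 2.89% and 2.98%. With each base centred on its own median, paired minus unpaired was -0.34 and -0.34 in wild type, against -0.32 and -0.33 in the knockout on the log2 scale. The change of 0.02 (exact permutation p = 0.333) turned direction under 5 other settings, from -0.11 to -0.00, so no direction is given for it.

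The graded prediction gave a wider gap. The 35 A and C with an RNAplfold unpaired probability under 0.2 lay below the 193 with one over 0.8 by 1.37 and 1.35 in wild type, against 1.35 and 1.37 in the knockout on the log2 scale. This gap changed by 0.0014 (exact permutation p = 0.667). With a fold that had no span limit, paired minus unpaired went from -0.28 to -0.39.

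The 3 predicted hairpins with most base pairs are given with their counts after centring, beside 44.9% of positions higher and 26.6% lower in the file; differences between the hairpins were not tested. The one at 9927 to 9986, with 22 base pairs near the 3′ end of the coding region, had 17 paired A and C at 2.62% and 2.71% in wild type, against 1.73% and 1.71% in the knockout. Limma called 7 of these 17 higher and 4 lower after centring. It is shown because it takes in most of the last window, the least reactive one, with capitals at the paired bases.
stem-loop 3: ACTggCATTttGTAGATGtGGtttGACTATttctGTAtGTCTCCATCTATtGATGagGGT
The hairpin at 9491 to 9582, with 24 base pairs, had 24 paired A and C at 2.61% and 2.58% against 1.80% and 1.76%, with 9 called higher and 2 lower. In the largest, 9626 to 9759 with 32 base pairs, the 32 paired A and C read 3.46% and 3.46% in wild type, hardly under its 47 unpaired ones at 3.59% and 3.55%. In the knockout they read 1.80% and 1.81% against 2.19% and 2.15%, with 3 paired positions called higher and 19 lower. Paired bases of this hairpin were thus closer to the unpaired ones in the wild-type libraries than in the knockout libraries, and the difference between groups in this gap was not tested.

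At the junction with MT-ATP6, reactivity stepped down at the start of MT-CO3 in all 4 libraries. The last 50 nt of MT-ATP6 before the shared base (31 A and C) averaged 3.95% and 4.06% in wild type, against 2.28% and 2.24% in the knockout. The first 50 nt of MT-CO3 (36 A and C) averaged 3.05% and 3.11% against 1.79% and 1.74%. With base composition taken into account, the step was -0.32 and -0.32 in wild type, against -0.34 and -0.35 in the knockout on the log2 scale. It changed by -0.03 between groups (exact permutation p = 0.333), and this change turned direction under 5 other settings (0.00 to 0.32).

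Within the junction, the bases around the start codon stood apart. The A at 9206, which ends MT-ATP6 and opens MT-CO3, read 1.29% and 1.40% in wild type, against 1.37% and 1.40% in the knockout, so its groups overlapped while most neighbours fell. Its change was 0.04 without centring (limma adjusted p = 0.639) and 0.67 after it (limma adjusted p = 0.00128). The other bases of the start codon rose: the T at 9207 from 0.754% and 0.869% to 1.5% and 1.54%, and the G at 9208 from 0.320% and 0.376% to 0.938% and 1.14%. T and G carry no DMS signal on this strand and were not tested. The next C, in contrast, fell more than the file: 9210 went from 4.01% and 4.12% to 1.68% and 1.62% (-0.62, limma adjusted p = 0.000339), and 9211 from 2.79% and 2.98% to 1.22% and 1.24% (-0.54, limma adjusted p = 0.00114).

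In the first 12 nt of MT-CO3, the 10 A and C averaged 2.56% and 2.70% in wild type, against 1.56% and 1.55% in the knockout. Limma called 2 of these 10 higher after centring (9206 and the A at 9216, 0.42), 2 lower and 6 neither. In the file, 44.9% of positions were called higher and 26.6% lower. In the 12 nt before 9206, the 10 A and C averaged 3.44% and 3.62% against 2.23% and 2.18%, with 2 called higher, 3 lower and 5 neither and changes from -0.30 to 0.28. In these 12 nt of MT-ATP6 all 10 were lower without centring, and in the 12 nt of MT-CO3 8 of 10 were, beside 78.3% in the file. Relative to the rest of MT-CO3, with A and C each set against its own median, the first 50 nt were lower by 0.10 and 0.06 in wild type and by 0.20 and 0.22 in the knockout on the log2 scale (a change of -0.13, exact permutation p = 0.333). At A alone the change was -0.0235 (exact permutation p = 1), and with flanks of 100 nt -0.0297. With the pooled correction for the opposite strand it was -0.22, from a wild-type difference of -0.0172.

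The last 50 nt were lower still, by 0.38 and 0.32 in wild type and by 0.46 and 0.45 in the knockout against the rest of the mRNA. Their 16 A and C averaged 2.56% and 2.62% against 1.59% and 1.56%. The boundary to MT-TG, where the coding region is cut from the tRNA, is shown with MT-CO3 in capitals, positions 9965 to 10001.
MT-CO3 end: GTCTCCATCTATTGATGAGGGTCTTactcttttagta
The last 12 nt hold 3 A or C. The A at 9982 went from 3.98% and 3.94% to 2.30% and 2.17% (-0.17, limma adjusted p = 0.0126), the A at 9979 from 2.49% and 2.84% to 2.15% and 1.94% (0.26, limma adjusted p = 0.0459), and the C at 9987 from 1.99% and 1.84% to 1.86% and 1.48% (0.44, limma adjusted p = 0.0256). The groups overlapped at 9987. The last base, the T at 9989, had the low values of 0.040% and 0.047% in wild type, against 0.253% and 0.246% in the knockout, and the first base of MT-TG, the A at 9990, had 0.082% and 0.092% against 0.163% and 0.144%.

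One position of MT-CO3 was not a DMS signal by its base. The G at 9476, base 1 of codon 91, read 95.3% and 96.1% in wild type, against 92.2% and 92.5% in the knockout, and the paired base in the light-strand file read 97.0%, 98.1%, 93.4% and 94.4%. It was the only position of the 784 with a mean fraction over 0.3, and it was left out of the G and T means. The next highest G or T was the T at 9880 with 2.55% and 2.43% against 1.46% and 1.60%. The cause of the value at 9476 was not tested.

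Among the 12 protein-coding genes of the heavy strand, called mRNAs here, MT-CO3 was in the middle in wild type and near the bottom in the knockout. ATP8 with ATP6, and ND4L with ND4, share a bicistronic mRNA but were counted apart. It ranked 7 in wild type, against 11 in the knockout by its mean over A and C, where only ND4 was lower (1.94% ± 0.00985, SD, n = 2). Its uncentred change of -0.63 was the largest after that of ND4 (-0.90) and next to that of ND5 (-0.62), which did not differ from it by more than their SE of 0.0129 and 0.00901. ATP6 changed by -0.52, and the other complex IV mRNAs, COX2 and COX1, by -0.42 and -0.38. All 12 mRNAs were lower without centring by limma. Relative to the file 9 were called higher and 1, ND4, lower.

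Set against the mean of the other 11 mRNAs in the same library, which needs no scaling, MT-CO3 was lower by 0.04 and 0.03 in wild type and by 0.14 and 0.15 in the knockout on the log2 scale. The change of -0.11 (exact permutation p = 0.333) turned to 0.14 when all fractions were corrected for the opposite strand with either slope, so the place of MT-CO3 among the mRNAs depends on that step. Over the gene means of the 4 libraries, the mRNAs nearest to MT-CO3 by Euclidean distance were ND4L (0.184), ND3 (0.186) and COX2 (0.228), then ND1 (0.248) and COX1 (0.258), and the neighbour on the transcript, ATP6, was the farthest (0.512).

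**Figure D5:**
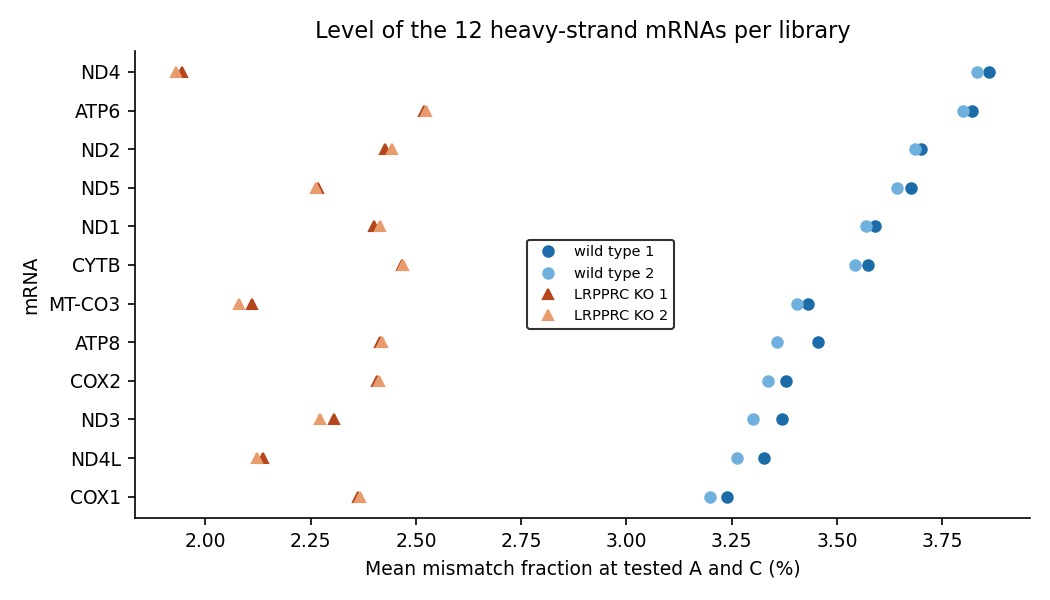
Mean mismatch fraction in percent at tested A and C of the 12 heavy-strand protein-coding genes, called mRNAs, ordered by their wild-type mean, with 1 point per library. MT-CO3 ranks 7 by its wild-type mean and 11 by its knockout mean, and every knockout point lies left of every wild-type point.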

How the data were processed

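The authors deposited, per the file headers, the fraction of mismatches and the fraction of mismatches with deletions at every position, in 1 file per strand and library (8 files, 2 libraries per group). Per the submitters' processing notes, cutadapt and Bowtie2 were used; their versions, the build, read filters and coverage minimum are not given in the sources used here. No read counts come with the fractions, so the depth is unknown and no intervals were computed.

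A and C positions with a mean fraction from 0.002 to 0.3 were tested over the whole heavy-strand file with limma 3.58.1 in R 4.3.3 (eBayes, two-sided, Benjamini-Hochberg, threshold 0.05), as single positions, 50-nt windows with at least 8 positions, and genes with at least 10. Fold changes on the log2(fraction + 0.001) scale understate change at low positions. Single values per library were compared by exact permutation. Structures came from ViennaRNA 2.7.2 at 37 °C (RNAfold; RNAplfold, window 240). For the correction, the slope of heavy-strand G and T on the paired light-strand fraction, times that fraction, was subtracted from each A and C. The rest was then scaled up for the share taken off. In wild type the light-strand file read higher at G and T than at A and C. Whether the values subtracted there were light-strand signal was not tested. A light-strand position is 16569 minus the heavy-strand one, which was complementary at 100% of 16500 positions. The limma step, tested on simulated data over 9910 positions, recovered 84% of changes of 1 and 58% of changes of -0.5 (log2). Only a small part of the simulated positions was changed, unlike in these data, so these rates do not describe the calls above.

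Named positions were the 6 largest rises and falls among called positions without overlap, the 6 highest in wild type, those within 12 nt of the junction and of the 3′ end, and any over 0.3; other positions were chosen after their values were seen. The mRNA, lists and rules were chosen with earlier results of these data known. Replicate numbers did not pair the samples: over MT-CO3 the correlation of replicate differences was 0.09 (2 pairs).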

Additional observations from a re-analysis of the deposited data

How the results depend on the processing

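Depth is unknown, and 2 libraries per group limit every comparison. The 12 positions named as largest rises and falls kept direction under all 209 alternatives run. They were picked as the largest called changes in the same 4 libraries, so this was largely fixed in advance and is no separate evidence. The A at 9432 was not tested with either correction, with a lower limit of 0.01 and without either knockout library, and 9335 and 9440 with a lower limit of 0.01. The paired positions of the local hairpin called higher numbered 9 in the main setting and 10 of 11 with either correction. With these corrections most of MT-CO3 was called higher, 253 (pooled slope) or 267 (slope at G) of 458 positions. A lower limit of 0.01 left 7 of the paired hairpin positions, 5 called higher.

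Without centring, positions called were 12 higher and 407 lower, windows 0 and 16, the gene-level change -0.63, and windows 3 and 15 (nucleotides 101 to 150 and 701 to 750) -0.42 and -0.48. With quantile normalization the gene-level change was -0.0423 (called) and 4 windows were higher; centred on the highest 5%, -0.0397 and 4. A lower limit of 0.01 gave -0.0561 (called), 4 windows higher and a paired minus unpaired change of -0.0385. A pseudocount of 0.01 gave a gene-level change of -0.00808 and a junction step change of 0.0115. With deletions counted, the gene-level change was -0.00996, 4 windows were higher and the knockout slope was 30.5.

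A alone gave 46 positions higher and 62 lower, 4 windows higher, a gene-level change of -0.0148, a Gini change of -0.0100 (limma adjusted p = 0.0802), -0.0661 for paired minus unpaired and -0.23 for window 15. C alone gave 99 positions higher and 66 lower, 7 windows higher and 4 lower, a gene-level change of 0.0842 (limma adjusted p = 0.00159), a step change of 0.00351, and 0.00801 and -0.0585 at 9468 and 9487. These single-base settings test fewer positions.

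Corrected for the opposite strand (slope at G, added after seeing the data, in second place), positions higher were 253 and 267, lower 51 and 52, windows higher 13 and 16 and lower 0 and 0. The gene-level change was 0.21 and 0.23 (called), MT-CO3 against other mRNAs 0.14 and 0.14, the step change 0.32 and 0.24, paired minus unpaired -0.0010 and -0.0014, window 11 (nucleotides 501 to 550) 0.0422 and 0.0537, window 10 (451 to 500) 0.0627 and 0.0790, 9468 0.21 and 0.17, and 9487 0.0881 and 0.0610. The slopes themselves were 33.8 and 30.4 without the highest 5% (wild type, knockout), 5.24 for G in wild type, and 14.6 and 24.1 for T.

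Flanks of 100 nt gave a step change of 0.00115, a fold with no span limit gave -0.11 for paired minus unpaired, and windows of 25 nt gave 9 of 31 higher. Leaving out 1 library each gave 92 to 141 positions higher (92 without wild-type replicate 2), 105 to 162 lower, 4 to 6 windows higher (4 without knockout replicate 1) and 6 to 7 lower, gene-level changes of -0.0119 to 0.00850, and Gini changes of -0.0276 to -0.0258. With the replicate block, 135 positions were higher and 146 lower, 7 windows each way, and the calls of the positions of largest rise, fall and level, the 4 named windows, the gene-level change and the Gini index were unchanged; the junction and 3′-end positions were not followed. Other causes of these shifts were not tested.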
